A study of Mus musculus with 30 samples.

Results

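The genes described here encode the nuclear subunits of the mitochondrial respiratory chain and ATP synthase, together with the complex I assembly factors that share their name. They were chosen by symbol: every gene measured by a probe set of the array with a single annotated symbol that begins with Nduf, Uqcr, Atp5, Cox4, Cox5, Cox6, Cox7 or Cox8, or that is Sdha, Sdhb, Sdhc or Sdhd. The choice used no measured value. It gave 84 genes on 156 probe sets, out of 12394 genes on the array, and the brightest probe set stood for each gene. A further 8 probe sets of such genes carry several symbols and were left out. A filter on low signals kept 7436 genes for testing, 78 of the 84 among them. The 6 that it removed were Cox4i2, Cox6a2, Cox7a1, Cox7c, Cox8b and Ndufb1.

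The respiratory chain sits in the inner mitochondrial membrane. Complex I (the Nduf genes) and complex II (the Sdh genes) pass electrons to ubiquinone, complex III (the Uqcr genes) passes them on to cytochrome c, and complex IV, cytochrome c oxidase (the Cox genes), passes them to oxygen. ATP synthase (the Atp5 genes) uses the proton gradient that complexes I, III and IV build up. In neurons this machinery supplies much of the ATP for ion pumping and synaptic transmission. A few core subunits are encoded by mitochondrial DNA and are not members here.

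Primary cultures of telencephalon, the embryonic forebrain, were made at embryonic day 12.5 from a pool of 6 Xbp1 -/- embryos (labelled KO) and a pool of 4 Xbp1 +/+ embryos (labelled WT), all from matings of Xbp1 +/- parents. Xbp1 is a gene of the unfolded protein response, where its product switches on genes for protein folding and secretion. The labels do not state which part of the gene was removed. Each pool was divided over 15 dishes in serum-free medium. Brain-derived neurotrophic factor (BDNF), which acts on neurons through TrkB, was given from day 3 of culture at a dose of 100 ng/ml. Each genotype had 5 dishes with no BDNF (basal) and 5 with BDNF for 24 h, all collected on day 4, and 5 with BDNF for 48 h, collected on day 5. RNA of each dish was hybridized to 1 array, which gave 6 groups of 5 arrays. BDNF and an extra day in culture therefore cannot be told apart at 48 h, and with 1 pool per genotype a difference between genotypes cannot be told apart from a difference between pools. All p-values measure the spread between dishes of a pool.

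Levels below are log2 signals relative to the median of the array, so that 0 is the median probe set and -3.32 is the floor. Differences are log2 differences ± SE from limma, with Benjamini-Hochberg adjustment of p over all 7436 genes and a threshold of 0.05. "Rose", "fell", "higher in" and "lower in" are used for genes past it. Array medians before scaling ranged from 81.9 to 138, and the ratio of the 3' to the 5' Gapdh probe set, which follows RNA length, from 2.57 to 2.94 in basal dishes and from 2.17 to 2.68 at 48 h. The arrays of 48 h replicates 3 to 5 stood apart from replicates 1 and 2 in an earlier analysis of these data, and 48 h results are also given without them. Neuron markers were high in every group: the 8 genes of a fixed list (Tubb3, Map2, Snap25 and others) summed to 261 to 294 array medians in WT basal and 247 to 275 in KO basal dishes. None of the 4 Xbp1 probe sets was lower in KO past the threshold, and 1 of them was higher by 1.09, 1.05 and 0.85 at the 3 times. Another was higher in basal dishes only, by 0.22. Xbp1 signal therefore does not check the genotype labels.

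Many promoters of these genes hold binding motifs of NRF1, the GABP/ETS family and YY1, factors known for the control of nuclear genes for mitochondrial proteins. In RefSeq promoter windows of build GRCm38.p6 (250 bases before to 50 after the gene start), which were found for 70 of the 84 genes, the NRF1 motif (GCGCA, any base, GCGC) occurred on either strand in 16 genes (22.9%), against 5.19% of all 27025 genes with a window. The ETS motif CCGGAAG occurred in 18 (25.7% against 9.93%) and the YY1 motif AAGATGGCG in 6 (8.57% against 1.64%). The end of the ETS motif can share its last letters with the start of the YY1 motif, and a match is only a description of the sequence. The stretches below show a match in capitals, 5' to 3' on the strand of the gene, for genes whose signal rose at 48 h of BDNF in both genotypes. The assembly factor gene Ndufaf4 (chr4:24897945-24898004, plus strand) has its NRF1 match 113 bases before the gene start, Ndufs5 (chr4:123718250-123718309, minus strand) 98 bases, Ndufa5 (chr6:24527682-24527741, minus strand) 190 bases and the complex II anchor gene Sdhd (chr9:50603894-50603953, minus strand) 79 bases before it. Sdhd also has an ETS match in reverse complement 46 bases before its start (chr9:50603864-50603920).
Ndufaf4, NRF1: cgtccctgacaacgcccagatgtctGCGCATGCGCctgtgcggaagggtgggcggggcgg
Ndufs5, NRF1: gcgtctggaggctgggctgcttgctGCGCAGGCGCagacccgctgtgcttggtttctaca
Ndufa5, NRF1: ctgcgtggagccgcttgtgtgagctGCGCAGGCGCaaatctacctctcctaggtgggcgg
Sdhd, NRF1: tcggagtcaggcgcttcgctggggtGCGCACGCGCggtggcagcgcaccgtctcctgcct
Sdhd, ETS: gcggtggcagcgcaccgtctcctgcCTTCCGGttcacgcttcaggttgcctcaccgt

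The first question was how the chain genes moved at 48 h of BDNF. They rose mostly in complex I and its assembly factors, by less than 1.5-fold, in both genotypes. In WT, 20 of the 78 tested genes rose and 3 fell, where 20.5% of all tested genes rose and 15.7% fell (36.2% in all). In KO, 23 rose and 2 fell, against 19.4% and 9.47% (28.9% in all). Called with no overlap between the groups were 8 members in WT (18.8% of all tested genes) and 13 in KO (17.3%). The members' share of rises was near the background in WT (25.6% against 20.5%) and above it in KO (29.5% against 19.4%). Their shares of falls, 3.85% and 2.56%, lay below 15.7% and 9.47%. In all, 29.5% of members were called in WT, below 36.2%, and 32.1% in KO, above 28.9%. The members' median difference was 0.08 in WT and 0.08 in KO, against 0.02 and 0.05 over all tested genes. The split depends on the scaling: 16 rose and 4 fell in WT with quantile normalization, and 15 rose and 8 fell with scaling to the 75th percentile of each array. In KO these splits were 23 and 2, and 17 and 8. With 48 h replicates 1 and 2 alone, which leaves fewer dishes, 2 genes were called in WT and 12 in KO. With that Gapdh ratio added to the fit, these were 7 and 11. The ratio was 2.72 to 2.94 in WT basal dishes and 2.40 to 2.62 at 48 h, and in KO 2.57 to 2.84 and 2.17 to 2.68. A fit with it can hardly tell it apart from 48 h. Shares over all tested genes are not given for these scalings and settings, so the changes cannot be read as particular to the members.

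WT and KO dishes share no arrays, and 17 genes rose in both: Ndufa5, Ndufa8, Ndufa9, Ndufab1, Ndufb2, Ndufb3, Ndufb8, Ndufs1, Ndufs3, Ndufs4, Ndufs5, Ndufaf1, Ndufaf4, Ndufaf5, Sdhd, Atp5g1 and Cox8a. They make up 85.0% of the genes that rose in WT and 73.9% of those that rose in KO, where the shares over all tested genes were 69.3% and 73.2%. Of the 16 with a promoter window, 6 hold the NRF1 motif, and of the 50 other tested members with one, 10 do. The ETS motif is in 4 of the 16 and 14 of the 50, and the YY1 motif in 2 and 4. A link between motifs and the rise was not tested.

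**Figure D1:**
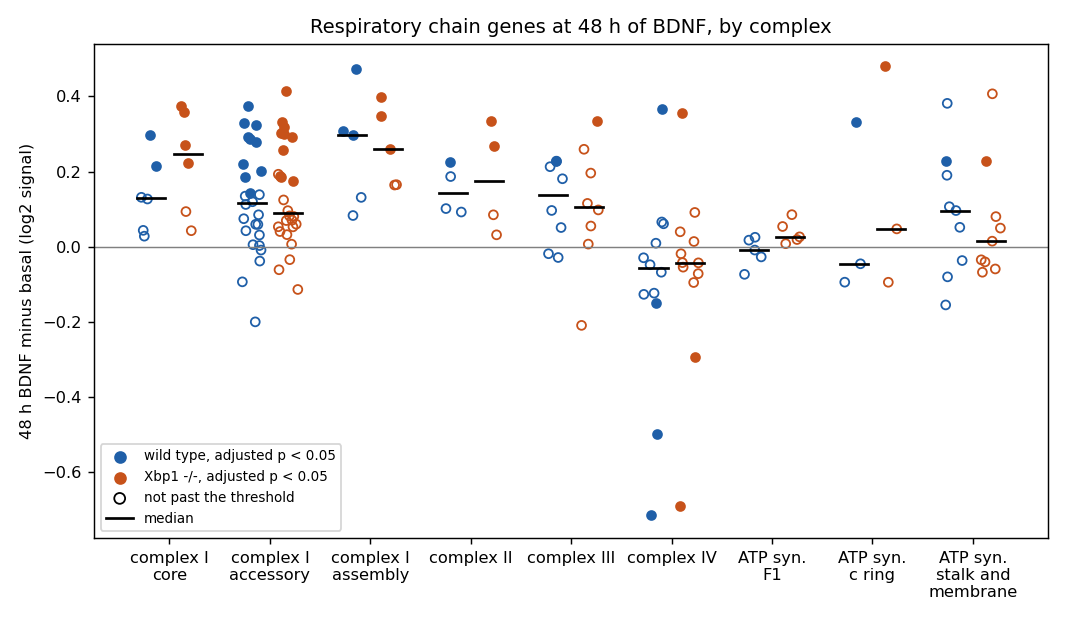
Log2 difference between 48 h of BDNF and basal for each of the 78 tested genes (y axis), by complex (x axis), in wild type (blue) and Xbp1 -/- (orange), 5 arrays per group. Filled points passed the threshold and black bars are medians; the complex I columns hold most of the filled points above 0, while the F1 part of ATP synthase holds none.

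Complex I had 12 of 32 tested subunits higher at 48 h in WT and 14 of 32 in KO, and none lower in either. Of the core subunits, which carry the flavin and iron-sulfur clusters and bind ubiquinone, 2 of 6 rose in WT and 4 of 6 in KO. Ndufs3, a core subunit of the ubiquinone-binding module, read 3.97, 4.17, 4.25, 4.18 and 4.13 in WT basal dishes and 4.17, 4.32, 4.35, 4.33 and 4.58 at 48 h. In KO it read 3.74, 3.81, 3.86, 3.95 and 4.15 in basal dishes and 4.19, 4.29, 4.23, 4.25 and 4.32 at 48 h. The groups overlapped in WT, and in KO every 48 h dish lay above every basal dish. The rise was 0.21 ± 0.07 in WT (adjusted p = 0.0206) and 0.36 ± 0.07 in KO (adjusted p = 3.63e-04). Ndufs1, the largest iron-sulfur subunit of the NADH-oxidizing module, rose by 0.30 ± 0.08 in WT and 0.37 ± 0.08 in KO (adjusted p = 0.0044 and 6.87e-04). Ndufs7 and Ndufs8, iron-sulfur subunits next to the ubiquinone site, rose in KO by 0.27 and 0.22.

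Among the accessory subunits 10 of 26 rose in each genotype. Ndufs4, an accessory subunit of the NADH-oxidizing module whose loss causes Leigh syndrome in humans, read 3.43, 3.36, 3.46, 3.30 and 3.16 in WT basal dishes and 3.50, 3.88, 3.67, 3.63 and 3.92 at 48 h. In KO it went from 3.08, 3.27, 3.35, 3.48 and 3.37 to 3.67, 3.75, 3.77, 3.56 and 3.88. Neither pair of groups overlapped, and the rises were 0.38 ± 0.09 (adjusted p = 0.0010) and 0.41 ± 0.09 (adjusted p = 5.03e-04). A second Ndufs4 probe set did not follow, with -0.04 ± 0.10 in WT and -0.07 ± 0.10 in KO. Ndufa9, a subunit of the matrix arm, rose by 0.29 ± 0.06 in WT and 0.32 ± 0.06 in KO. Ndufab1, the mitochondrial acyl carrier protein that is also a complex I subunit, rose by 0.28 ± 0.06 and 0.30 ± 0.06, and its second probe set gave -0.06 ± 0.11 in WT and 0.10 ± 0.11 in KO. The arrays of both of these genes did not overlap between basal and 48 h in either genotype. Ndufb2, a membrane arm subunit, rose by 0.33 ± 0.10 in each.

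Of the 5 tested assembly factors, which join complex I modules and leave the finished complex, 3 rose in each genotype. Ndufaf4 had the largest rise of all members in WT. It read 2.22, 1.99, 2.10, 2.48 and 1.92 in WT basal dishes, 2.64, 2.54, 2.34, 2.67 and 2.88 at 24 h and 2.63, 2.45, 2.60, 2.63 and 2.77 at 48 h. In KO the values were 2.11, 2.10, 2.37, 2.31 and 2.31 in basal dishes, 2.76, 2.72, 2.45, 2.38 and 2.39 at 24 h and 2.69, 2.81, 2.59, 2.48 and 2.62 at 48 h. The highest WT basal dish overlapped the treated ones, and the KO groups did not overlap. The rise at 48 h was 0.47 ± 0.10 in WT (1.39-fold, adjusted p = 4.09e-04) and 0.40 ± 0.10 in KO (1.32-fold, adjusted p = 0.0030). Its second probe set rose as well, by 0.34 ± 0.06 and 0.30 ± 0.06 when every probe set was fitted. Ndufaf1, an assembly factor of the membrane arm, rose by 0.31 ± 0.07 and 0.26 ± 0.07, and Ndufaf5 by 0.30 ± 0.07 and 0.35 ± 0.07.

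**Figure D2:**
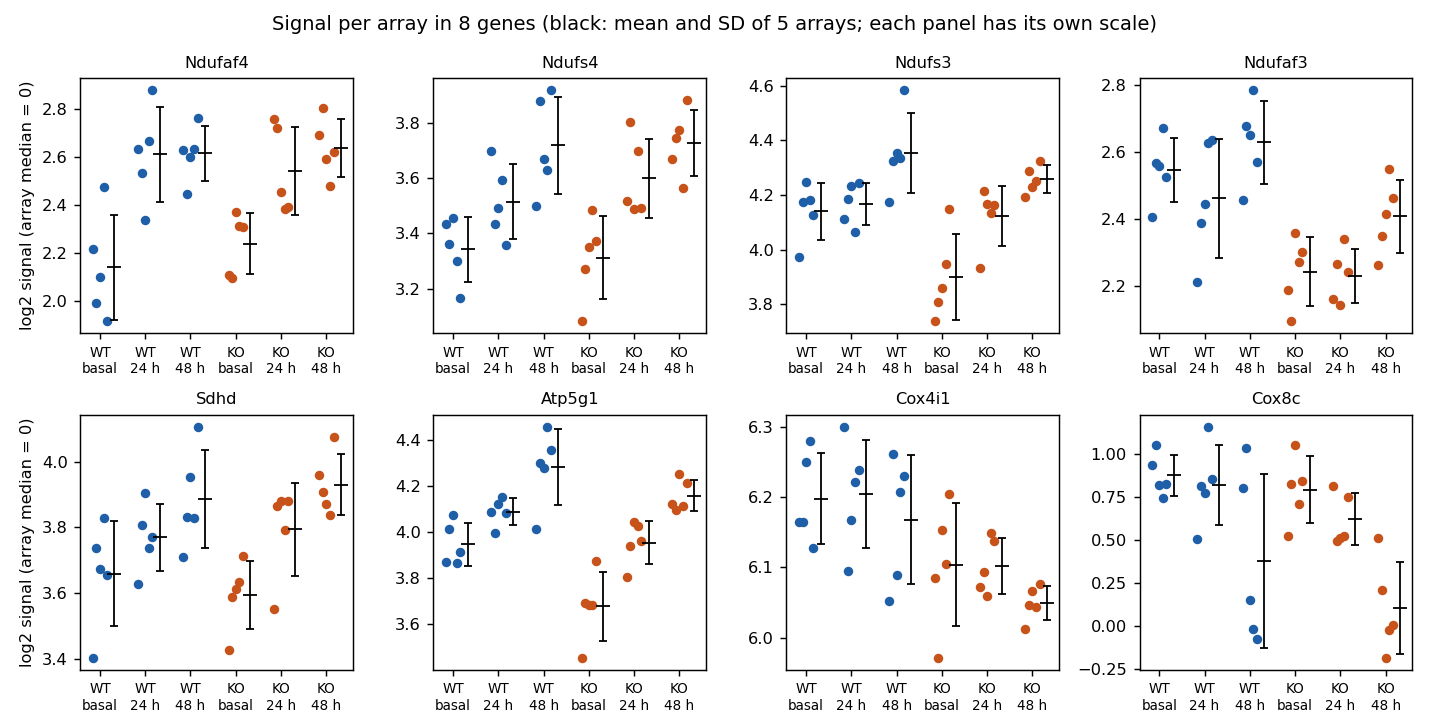
Log2 signal of 8 genes on each array (points; y axis, array median = 0) in the 6 groups of 5 arrays (x axis; blue wild type, orange Xbp1 -/-), with mean and SD in black. Ndufaf4, Ndufs4, Ndufs3, Sdhd and Atp5g1 sit higher at 48 h, Cox4i1 does not, Cox8c is lower at 48 h in most dishes, and Ndufaf3 is lower in Xbp1 -/-.

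Complex II showed the same direction in part. Sdhd, a membrane anchor, read 3.40, 3.74, 3.67, 3.83 and 3.65 in WT basal dishes and 3.71, 3.83, 3.95, 3.83 and 4.11 at 48 h, with overlap, a rise of 0.23 ± 0.08 (adjusted p = 0.0254). In KO it went from 3.43, 3.59, 3.61, 3.63 and 3.71 to 3.96, 3.91, 3.87, 3.84 and 4.08, with no overlap, a rise of 0.34 ± 0.08 (adjusted p = 0.0018). The flavoprotein gene Sdha rose in KO by 0.27 ± 0.10 (adjusted p = 0.0342), and its difference in WT was 0.19 ± 0.10 (adjusted p = 0.1263). The iron-sulfur subunit Sdhb and the second anchor Sdhc did not pass, at 0.10 and 0.09 in WT and 0.08 and 0.03 in KO. In complex III, 1 of 8 genes rose in each genotype, Uqcrq in WT (0.23 ± 0.08) and the hinge protein gene Uqcrh in KO (0.33 ± 0.09).

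In ATP synthase 2 of 17 tested genes rose in each genotype. One was Atp5g1 in both. Subunit c forms the rotating ring in the membrane, and Atp5g1, Atp5g2 and Atp5g3 encode the same mature protein behind different import sequences. Atp5g1 read 3.87, 4.01, 4.08, 3.87 and 3.91 in WT basal dishes and 4.01, 4.30, 4.28, 4.46 and 4.35 at 48 h. In KO it read 3.45, 3.69, 3.68, 3.68 and 3.88 in basal dishes and 4.12, 4.10, 4.25, 4.11 and 4.21 at 48 h. The KO groups stood apart, and the WT groups overlapped in 1 dish of 48 h, replicate 1. The rise was 0.33 ± 0.07 in WT (adjusted p = 4.92e-04) and 0.48 ± 0.07 in KO (1.39-fold, adjusted p = 6.50e-06), the largest rise of any member in KO. Atp5g2 and Atp5g3 did not pass, with -0.09 ± 0.07 and -0.05 ± 0.05 in WT and 0.05 ± 0.07 and -0.09 ± 0.05 in KO. Beside Atp5g1, Atp5l, a membrane part subunit, rose in WT by 0.23 ± 0.09, and Atp5o, which links the stalk to the catalytic head, rose in KO by 0.23 ± 0.08. None of the 5 genes of the catalytic F1 head passed on its brightest probe set. Their differences lay between -0.07 and 0.03 in WT and between 0.01 and 0.09 in KO. A dimmer Atp5d probe set gave 0.13 in WT and rose by 0.30 in KO (limma over all probe sets, adjusted p = 0.2745 and 0.0085). Atp5a1, Atp5b, Atp5c1 and Atp5d were read at high mean signals of 5.98, 6.16, 6.32 and 5.70. The part of signal level in the contrast between complexes was not tested.

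Complex IV had 1 rise in each genotype, Cox8a, and held all the falls. Cox8a rose by 0.37 ± 0.10 in WT and 0.35 ± 0.10 in KO, and its second probe set gave -0.03 ± 0.14 and -0.11 ± 0.14. Cox6b2, a testis-enriched isoform of subunit VIb, fell by 0.72 ± 0.11 in WT (adjusted p = 4.11e-06), the only fall of over 1.5-fold there, and by 0.29 ± 0.11 in KO (adjusted p = 0.0363). Cox8c, a testis-enriched isoform of subunit VIII, read 0.94, 1.06, 0.82, 0.75 and 0.83 in WT basal dishes and 0.81, 1.04, 0.15, -0.02 and -0.08 at 48 h. In KO it read 0.53, 0.83, 1.06, 0.71 and 0.84, and then 0.51, 0.21, -0.19, -0.02 and 0.01. In WT the low values were those of 48 h replicates 3 to 5. The fall of 0.50 ± 0.16 in WT (adjusted p = 0.0165) became a difference of 0.04 with 48 h replicates 1 and 2 alone, and the fall of 0.69 ± 0.16 in KO (adjusted p = 0.0017) became -0.43, short of the threshold. Both were also lost with the Gapdh ratio in the fit (-0.14 and -0.36), but that ratio itself largely separates 48 h from basal dishes. Cox7a2 fell in WT by 0.15 ± 0.06 (adjusted p = 0.0313), a call lost with quantile normalization and 6 other settings.

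The isoform genes that make up the standard enzyme showed small differences. Cox4i1, the common form of the regulatory subunit IV, read 6.17, 6.16, 6.25, 6.28 and 6.13 in WT basal dishes and 6.05, 6.26, 6.09, 6.21 and 6.23 at 48 h, a difference of -0.03 ± 0.05. In KO the difference was -0.05 ± 0.05. Cox6a1 differed by -0.12 ± 0.05 and -0.10 ± 0.05 and Cox6b1 by -0.07 ± 0.06 and -0.02 ± 0.06, none past the threshold. Cox7a2l, a factor of respiratory supercomplexes, differed by -0.13 ± 0.05 and 0.01 ± 0.05, and Ndufa4, a complex IV subunit despite its name, by 0.06 ± 0.06 and 0.04 ± 0.06. The forms known from lung (Cox4i2) or heart and skeletal muscle (Cox6a2, Cox7a1, Cox8b) were all below the array median in every dish. Cox8b and Cox7a1 reached the floor in dishes of nearly every group, with highest values of -2.03 and -2.01. Cox4i2 ranged from -3.29 to -1.16 and Cox6a2 from -1.13 to -0.07. Cox7c and Ndufb1, both parts of the standard enzymes, also read below 0 on their probe sets (-1.32 to -0.24 and -0.80 to -0.03). Cox7b and Ndufa4l2 had no probe set under the rule.

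The called genes lay almost wholly among probe sets of lower signal. Of the 35 members with a mean signal of at least 5 (32 times the array median), 1 rose at 48 h in each genotype, Ndufa5, against 15.5% (WT) and 16.3% (KO) of all tested genes of that signal. Falls at that signal were 1 and 0, against 18.7% and 18.9%. Of the 43 members below 5, 19 rose in WT and 22 in KO, against 20.9% and 19.6%, and 2 fell in each, against 15.5% and 8.78%. The median difference was 0.01 and 0.02 in the bright members and 0.19 and 0.22 in the others. Members were brighter than other genes, since 44.9% of them but 6.75% of all tested genes reached 5.

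This split was then looked at within genes, a comparison chosen after the values were seen. For 13 members the brightest probe set lay at 5 or above and a second one lay below 5 but above the filter. In all 13, in both genotypes, the dimmer probe set gave the higher 48 h difference, which it did in 180 of 233 genes (77.3%) with such a pair over the whole array, in WT and in KO. The medians over the 13 genes were 0.03 on the bright and 0.35 on the dim probe sets in WT, and 0.01 and 0.30 in KO. For Uqcrb, a complex III subunit, the bright probe set gave -0.02 in WT and 0.01 in KO and the dim one 0.50 (adjusted p = 3.28e-06) and 0.39 (adjusted p = 1.72e-04). For Ndufc2, a membrane arm subunit of complex I, the values were 0.06 and 0.04 on the bright and 0.46 and 0.36 on the dim probe set. For Atp5pb, the stator subunit b, they were 0.11 and 0.08 against 0.72 and 0.78. At 24 h the dim set gave the higher difference in 6 of the 13 genes in WT and in 13 in KO. Over the 233 genes of the array it did so in 60.9% and 67.8%. The part of the signal level in these differences was not tested.

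**Figure D3:**
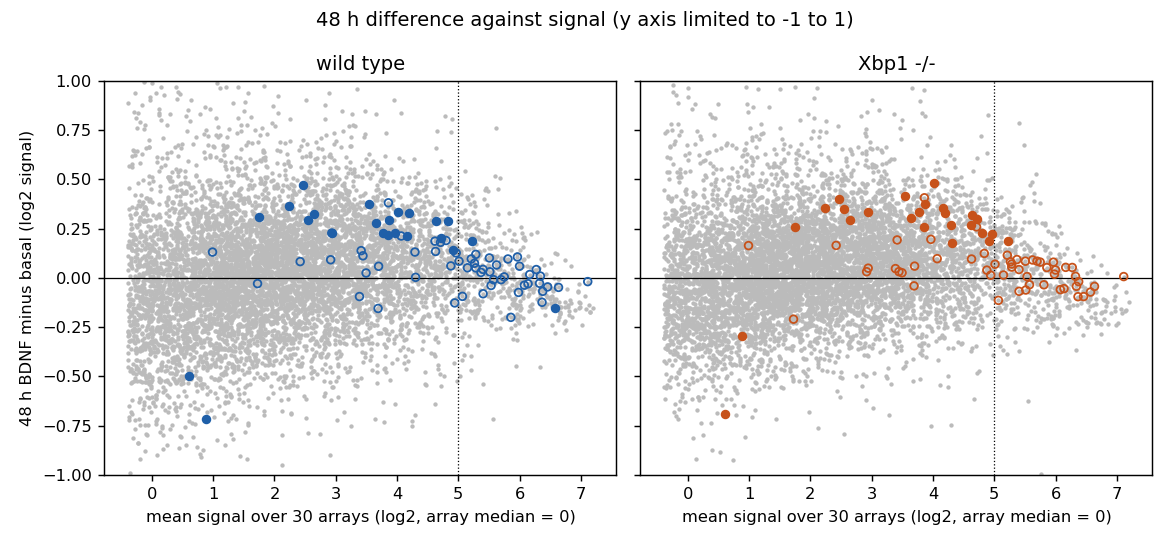
Log2 difference between 48 h of BDNF and basal (y axis, limited to -1 to 1) against mean log2 signal over 30 arrays (x axis) for all tested genes (grey) and the 78 respiratory chain genes (coloured, filled where past the threshold), in wild type and Xbp1 -/-. Right of the dotted line at 5, 1 of 35 members is filled above 0 in each panel.

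At 24 h few members had moved. In WT, 3 rose and none fell, where 8.04% of all tested genes rose and 6.40% fell (14.4% in all; 1 member and 8.69% with no overlap): Ndufaf4 by 0.47 ± 0.10 (adjusted p = 0.0014), Ndufa9 by 0.23 ± 0.06 (adjusted p = 0.0113) and Ndufab1 by 0.20 ± 0.06 (adjusted p = 0.0247). In KO, 6 rose and none fell, against 5.96% and 5.55% (11.5% in all; 2 members and 6.89% with no overlap): Ndufaf4 by 0.30 ± 0.10 (adjusted p = 0.0447), Ndufs4 by 0.29 ± 0.09, Atp5g1 by 0.28 ± 0.07, Ndufaf5 by 0.23 ± 0.07, Ndufs3 by 0.22 ± 0.07 and Ndufa9 by 0.19 ± 0.06. Basal and 24 h dishes were lysed on the same day, so that BDNF alone separates them. All 9 calls were also made at 48 h, against the same basal dishes. The call of Ndufaf4 in KO was lost in 5 alternatives and when any of 6 arrays was left out, with values of 0.15 to 0.37 in those alternatives. In WT its 24 h call held in 7 of 8 alternatives and without each array, and the second probe set gave 0.15.

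From 24 h to 48 h, 6 genes rose and 1 fell in WT (8.32% and 5.58% of all tested genes, 13.9% in all; 0 members and 6.46% with no overlap), led by Atp5md (0.49 ± 0.17), Ndufa2 (0.33 ± 0.07) and Cox8a (0.33 ± 0.10), with Cox6b2 falling by 0.49 ± 0.11. In KO, 3 rose and 1 fell (7.49% and 2.35%, 9.84% in all; 1 member and 5.94% with no overlap): Ndufaf7 (0.34 ± 0.10), Ndufs1 (0.27 ± 0.08) and Ndufb3 (0.22 ± 0.07), and Cox8c with a fall of 0.52 ± 0.16. The count of 4 in KO went to 0 without KO 24 h replicate 1, which was the low array for Ndufs1 (3.58, others 3.82 to 3.85), and to 0 without KO 48 h replicate 3.

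The second question was whether loss of Xbp1 changed the chain. In basal dishes 15 members were lower in KO and 1 higher, against 18.7% and 9.20% of all tested genes (27.9% in all). At 24 h these were 16 and 1 (17.8% and 8.43%, 26.2% in all), and at 48 h 7 and 1 (14.4% and 9.68%, 24.1% in all). Called with no overlap were 6, 5 and 2 members, against 17.3%, 16.3% and 15.3%. In basal dishes 7 of the 35 members at a signal of 5 or above were lower and 0 higher (21.1% and 4.78% of all genes there), and 8 of 43 below 5 were lower and 1 higher (18.5% and 9.52%). At 24 h 12 of the 35 were lower and 0 higher (34.1% and 3.59%), and 4 of the 43 were lower and 1 higher (16.6% and 8.78%). At 48 h 4 of the 35 were lower and 0 higher (18.9% and 3.98%), and 3 of the 43 were lower and 1 higher (14.1% and 10.1%). The median difference of the members was -0.10 at each time, and that of all tested genes -0.09, -0.09 and -0.07. The share of members lower in KO was thus near the background in basal dishes (19.2%) and at 24 h (20.5%) and lay at 8.97% at 48 h. That last count rests on single arrays: without WT 48 h replicate 1, 17 members were lower and 1 higher, and without WT 48 h replicate 4, 1 was lower and 1 higher. With quantile normalization the counts of calls fell to 9, 1 and 1, and with the 75th percentile to 8, 7 and 2. The shares over all tested genes under these scalings are not given. A difference below 0 at all 3 times was seen in 61 of 78 members (78.2%), and in 52.3% of all tested genes. Both medians lay below 0, and the members spread less around theirs. In basal dishes their 10th to 90th percentiles were -0.22 to -0.01, against -0.32 to 0.25 over all tested genes. The part of the narrower spread and that of the slightly lower medians in the share of signs were not tested. The 3 comparisons use different arrays but the same pools.

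Lower in KO at all 3 times were 4 genes: the assembly factor Ndufaf3, which works with Ndufaf4, the membrane arm subunit Ndufb3, the iron-sulfur core subunit Ndufv2 and the accessory subunit Ndufv3. Over all tested genes 6.85% were called lower at all 3 times. Ndufaf3 read 2.41, 2.57, 2.56, 2.67 and 2.53 in WT and 2.19, 2.09, 2.36, 2.27 and 2.30 in KO basal dishes, with no overlap, a difference of -0.30 ± 0.08 (adjusted p = 0.0037). At 24 h and 48 h the groups overlapped, and the differences were -0.23 ± 0.08 and -0.22 ± 0.08 (adjusted p = 0.0268 and 0.0367). Both calls were lost with quantile normalization (-0.18 and -0.18). So were the 24 h and 48 h calls of Ndufb3, Ndufv2 and Ndufv3, since Cox6b2 was the only member still called between genotypes at these times. Ndufb3 differed by -0.24, -0.21 and -0.20, and Ndufv2 by -0.15, -0.18 and -0.15. Other Ndufv2 probe sets did not follow at every time when every probe set was fitted. One nearly as bright gave -0.14 ± 0.09, -0.32 ± 0.09 and -0.04 ± 0.09, past the threshold at 24 h only. A dimmer one gave 0.01, 0.03 and 0.01, each ± 0.08. In basal dishes the next largest were the subunit c genes Atp5g2 (-0.28 ± 0.07) and Atp5g1 (-0.27 ± 0.07) and Ndufs3 (-0.24 ± 0.07). At 24 h Uqcr11 (-0.29 ± 0.10), Ndufb9 (-0.21 ± 0.05) and Ndufc2 (-0.20 ± 0.05) were among the 5 with the largest falls. The second probe sets of Ndufb9 and Ndufc2 gave -0.02 ± 0.09 and -0.13 ± 0.08 there, short of the threshold. At 48 h Ndufb6 (-0.18 ± 0.06) and Ndufv3 (-0.17 ± 0.05) were.

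**Figure D4:**
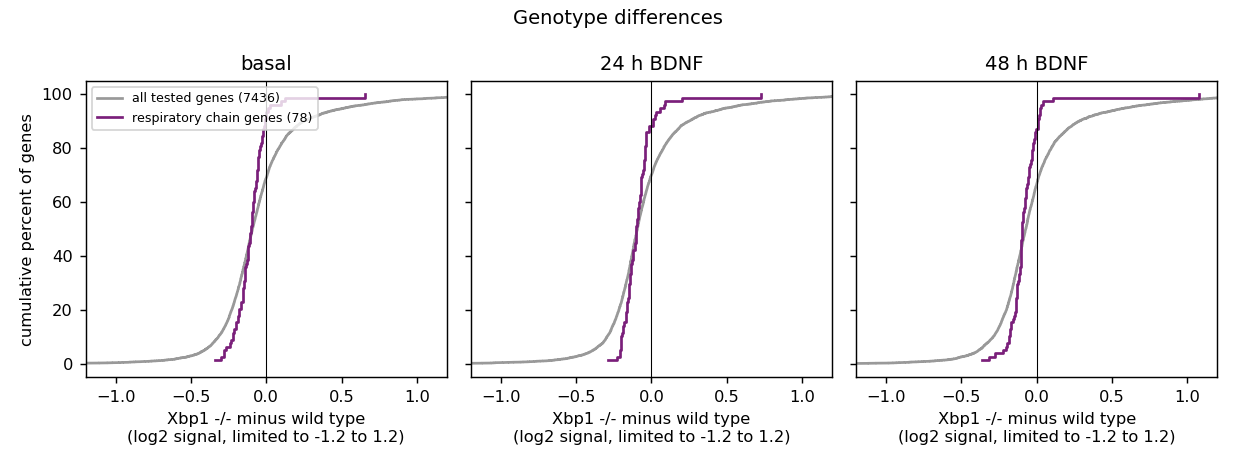
Cumulative share of genes (y axis, percent) by log2 difference between Xbp1 -/- and wild type (x axis, limited to -1.2 to 1.2) in basal dishes and at 24 h and 48 h of BDNF, for all 7436 tested genes (grey) and the 78 respiratory chain genes (purple). The purple curves are steeper, and their midpoints, -0.10 at each time, lie beside those of all genes.

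Cox6b2 was the 1 member higher in KO at every time. It read 0.82, 0.77, 0.75, 0.75 and 0.86 in WT and 1.51, 1.57, 1.33, 1.38 and 1.42 in KO basal dishes. At 24 h it read 0.66, 0.22, 0.51, 0.61 and 0.83 in WT and 1.52, 1.21, 1.34, 1.33 and 1.07 in KO, and at 48 h -0.29, 0.34, 0.03, 0.28 and -0.00 against 0.98, 1.19, 1.13, 1.19 and 1.26. No KO dish overlapped a WT dish of its time. The differences were 0.66 ± 0.11 (1.57-fold, adjusted p = 1.18e-05), 0.73 ± 0.11 (1.66-fold, adjusted p = 2.21e-06) and 1.08 ± 0.11 (2.11-fold, adjusted p = 7.22e-10), and they held in every alternative and without each array. The genotype difference in its 48 h response was 0.42 ± 0.15, which did not pass (adjusted p = 0.4896).

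A complex III gene behaved differently on its probe sets. Uqcr10 encodes a small subunit of complex III. Its brightest probe set gave -0.18 ± 0.13, -0.20 ± 0.13 and -0.36 ± 0.13 in KO against WT in the fit of all probe sets; in the fit of genes the last passed (-0.36, adjusted p = 0.0309). The dimmest of its 3 probe sets averaged -3.25 ± 0.09 (SD, n = 5) in WT and -0.39 ± 0.28 in KO basal dishes, -3.19 ± 0.26 and -0.23 ± 0.28 at 24 h, and -2.85 ± 0.36 and 0.01 ± 0.15 at 48 h. Of the WT arrays 2, 3 and 1 of 5 were at the floor, and the highest WT value, -2.32, lay below the lowest KO value, -0.79. KO was higher on it by 2.86 ± 0.16, 2.95 ± 0.16 and 2.86 ± 0.16 (adjusted p = 9.22e-13, 5.79e-13 and 6.85e-13 over all probe sets), sizes that the WT floor holds down. The remaining probe set was higher in KO by 0.86 ± 0.31, 1.28 ± 0.31 and 1.39 ± 0.31, past the threshold at 24 h and 48 h. The order of the probe sets was kept with quantile normalization, the 75th percentile and no rescaling, with 2.74 to 3.00 for the dimmest one. Uqcr10 lies on chromosome 11, as does Xbp1, with 15 protein-coding genes between them, and 4 members are on that chromosome. These probe sets were singled out after their values were seen, and what the dimmest one binds was not tested.

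**Figure D5:**
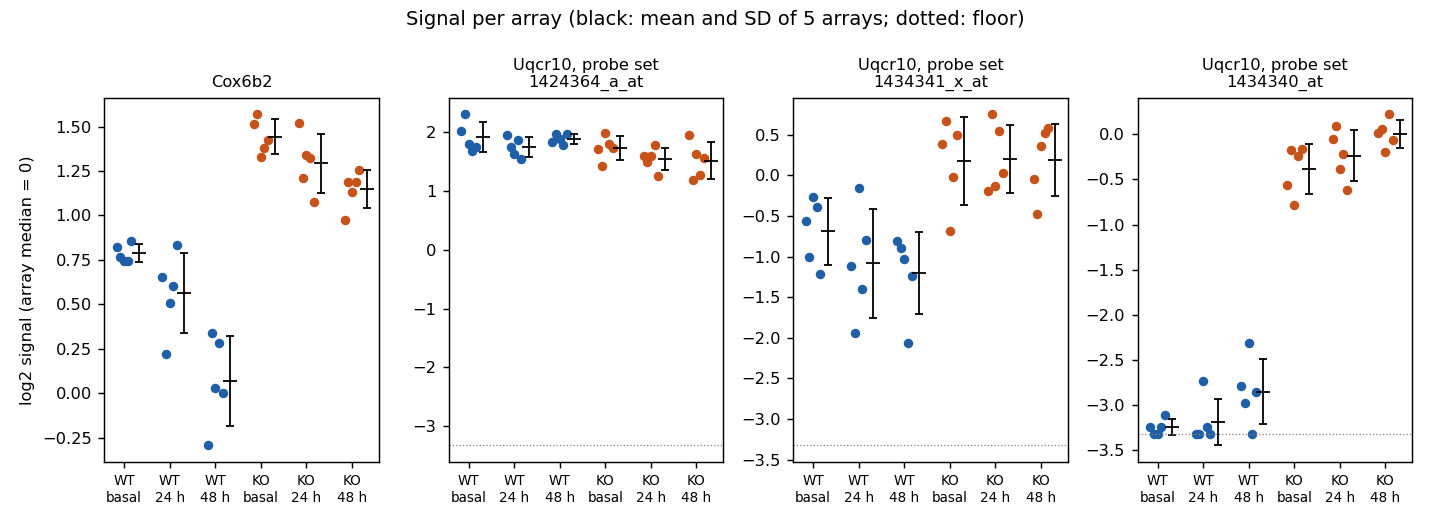
Log2 signal per array (points; y axis, array median = 0) of Cox6b2 and of the 3 Uqcr10 probe sets, from brightest to dimmest, in the 6 groups of 5 arrays (x axis; blue wild type, orange Xbp1 -/-), with mean and SD in black and the floor dotted. Cox6b2 and the dimmest Uqcr10 probe set separate the genotypes at each time, with KO above WT, while the brightest one overlaps.

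The third question was whether the response to BDNF differed between genotypes. No member passed the test of that difference in limma, at 24 h or at 48 h, where 0.0941% and 0.134% of all tested genes did (0.0269% higher and 0.0672% lower at 24 h, 0.0672% each way at 48 h). At an unadjusted p under 0.05 in limma there were 0 members at 24 h and 1 at 48 h, Cox6b2. The share of all tested genes at that unadjusted threshold is not given, so these counts do not set the members or Cox6b2 apart. The median half-width of the 95% interval of a member's difference in response, not adjusted for the number of genes, was 0.20. Differences of that size and larger ones could go undetected, since 0.42 in Cox6b2 did not pass after adjustment. Point estimates ranged from -0.23 to 0.28 at 24 h and from -0.19 to 0.42 at 48 h.

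Other mitochondrial and metabolic lists, written with earlier results of these data known, were counted at 48 h against the same background: 20.5% of all tested genes rose and 15.7% fell in WT, and 19.4% and 9.47% did in KO. Of 15 tested genes of pyruvate dehydrogenase and the citric acid cycle, which supply the chain with NADH and succinate (median 0.22 in WT and 0.26 in KO), 9 rose and 1 fell in WT and 9 rose in KO, with Dld at 0.59 ± 0.12 in both and Idh3a at 0.43 ± 0.09 and 0.50 ± 0.09. Of 17 glycolysis genes (medians 0.12 and 0.16) 7 rose and 3 fell in WT and 9 rose and 1 fell in KO. The neuronal enolase Eno2 rose by 1.37 ± 0.07 and 1.28 ± 0.07, the phosphofructokinase Pfkp by 1.02 ± 0.13 and 0.51 ± 0.13 and the neuronal glucose transporter Slc2a3 by 0.55 ± 0.07 and 0.68 ± 0.07. Of 28 assembly factors of other names (medians 0.05 and 0.11) 9 rose in each genotype and none fell, with Tmem70, which helps to assemble ATP synthase, at 0.65 ± 0.11 and 0.47 ± 0.11. Of 15 electron carrier and related genes (medians 0.13 and 0.20) 4 rose in WT and 7 in KO, among them coenzyme Q synthesis genes (Coq4 0.32 and Coq7 0.26 in WT, Coq6 0.44 and Coq3 0.41 in KO).

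Of 74 mitochondrial ribosome genes (medians 0.09 and 0.11) 14 rose (18.9%) and 3 fell in WT and 20 rose (27.0%) in KO (Mrpl37 by 0.66 ± 0.11 and 0.47 ± 0.11), and of 21 import genes (medians 0.13 and 0.13) 8 rose and 2 fell in WT and 6 rose and 1 fell in KO (Tomm70a by 0.45 ± 0.13 and 0.40 ± 0.13). The regulators of mitochondrial biogenesis did not share a direction. Of 13 (medians -0.07 and 0.06), 1 rose and 2 fell in WT, with the mitochondrial transcription factor Tfam at 0.24 ± 0.07, Nrf1 at -0.52 ± 0.14 and Ssbp1 at -0.17 ± 0.06. In KO 1 rose and 1 fell, the coactivator Ppargc1a at 0.32 ± 0.09 and the nuclear receptor Esrra at -0.45 ± 0.13. In KO against WT basal dishes, where 18.7% of all tested genes were lower, 18 of 74 ribosome genes, 8 of 17 glycolysis genes, 7 of 28 assembly factors, 3 of 15 carriers, 2 of 15 citric acid cycle genes, 1 of 21 import genes and 1 of 13 regulators (Nrf1, -0.60 ± 0.14) were lower, and 1 assembly factor was higher.

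Some markers of other cells moved with these comparisons. At 48 h the erythroid list (6 measured) went from 50.7 to 92.3 array medians to 26.4 to 47.9 in WT and from 48.6 to 86.2 to 21.0 to 52.8 in KO, with all 3 tested genes lower (Hba-x by 0.99 and 1.16) and Hba-a1, Alas2 and Epb42 dim in every group. The muscle list (8 measured, 2 tested, Acta2 lower by 0.71 and 0.63) went from 54.3 to 58.8 to 30.8 to 40.9 in WT and from 70.6 to 90.1 to 49.6 to 62.4 in KO. Of 8 progenitor genes 3 fell in each genotype (Hes1, Prom1, Vim), where 15.7% of all tested genes fell in WT and 9.47% in KO. Their sums overlapped: 142 to 188 and then 150 to 172 in WT, and 140 to 160 and then 131 to 146 in KO. Of 7 tested neuron genes 3 rose and 1 fell in WT and 1 rose and 1 fell in KO, where 20.5% and 19.4% of all tested genes rose. Snap25 rose by 0.82 and 0.72. The sums of the neuron list overlapped as well, 261 to 294 and then 255 to 306 in WT, and 247 to 275 and then 257 to 282 in KO. Between genotypes, the choroid plexus list (3 genes) summed to 139 to 156 in WT and 6.14 to 45.7 in KO basal dishes, with Ttr and Folr1 lower by 3.56 and 2.30 and Otx2 higher by 0.74. The vascular and meningeal list (11 measured, 7 tested) summed to 85.6 to 104 and 169 to 206, with 6 genes higher (Lum by 1.99, Dcn by 1.41) and 1 lower, and the endothelial genes Cldn5, Pecam1 and Cdh5 dim in every group. The part of these cells in the respiratory chain differences was not tested, and in such bulk samples fewer cells of a type and less RNA per cell cannot be told apart.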

How the data were processed

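RNA of 30 dishes was hybridized, 1 dish to 1 array, to Affymetrix Mouse Genome 430A 2.0 arrays. The deposited values are linear signal intensities from MAS5 (version not given in the sources used here), per the submitters' processing notes. A division by the array median and a filter on present calls, which the series' design text names, are not visible in the deposited intensities, since array medians differ and all probe sets are listed. Each array was divided by its median, values under 0.1 of the median were set to 0.1, and log2 was taken. A gene was represented by its brightest probe set with 1 symbol in the platform annotation, and the upper 60 percent of genes by mean signal were tested. limma 3.58.1 (R 4.3.3) fitted 1 mean per group over the 30 arrays, with a trend in the prior variance and 11 contrasts. The fit was tested on simulated data. The rule for named genes took up to 5 called members with the largest rise and 5 with the largest fall (3 each in 48 h against 24 h and in the differences in response), fixed isoform genes and up to 3 genes of each list; further members named in the text were chosen after their values were seen. The members and lists were chosen with earlier results of these data known. Promoters came from RefSeq (GRCm38.p6). The views by second probe set and of Uqcr10 were chosen after the values were seen. Alternatives were quantile and 75th percentile scaling, no rescaling, a pseudocount, no filter, the mean of probe sets, a replicate block, the Gapdh ratio, 48 h replicates 1 and 2 alone, and each array left out. Arrays have no read depth, and their number limits precision.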

Additional observations from a re-analysis of the deposited data

Results flagged for a closer look

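In 10 of 233 sets of 5 arrays of one gene (4.29%), 1 array lay apart from the other 4 by Dixon's criterion, which chance meets in about 1 of 20 sets. Replicate 5 of the KO basal group was the high array for Ndufa2 (5.00, others 4.72 to 4.77), Sdhc (3.20, others 2.85 to 2.92) and Cox7a1 (-2.78, others at the floor of -3.32). Replicate 1 of the KO 24 h group was the low array for Ndufs1 (3.58, others 3.82 to 3.85), Ndufs3 (3.93, others 4.14 to 4.21) and Sdhd (3.55, others 3.79 to 3.88). Replicate 1 of the WT 48 h group was low for Ndufab1 (3.61, others 3.79 to 3.86) and high for Cox8b (-2.03, others -3.32 to -3.05). Replicate 5 of the KO 48 h group was high for Cox7a2 (6.58, others 6.43 to 6.46), and replicate 1 of the WT 24 h group was high for Ndufb6 (5.85, others 5.44 to 5.54).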

How the results depend on the processing

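Counts of called members below are for 24 h, 48 h and 48 h against 24 h in WT (main 3, 23 and 7), the same in KO (6, 25 and 4), and KO against WT in basal, 24 h and 48 h dishes (16, 17 and 8). Shares over all tested genes in each setting are not given, so a changed count cannot be read as particular to the members. Without rescaling they were 1, 70 and 74, then 0, 71 and 32, then 1, 2 and 1; this setting moves the median of all genes at 48 h to 0.34 in WT and 0.29 in KO, and for KO at 24 h limma's 0 is an adjusted count. Quantile normalization gave 5 (WT 24 h), 4 (WT 48 h against 24 h), 14 (KO 24 h), and 9, 1 and 1 between genotypes. The 75th percentile gave 5 (WT 24 h) and 8, 7 and 2 between genotypes. With 48 h replicates 1 and 2 alone the counts were 2 and 0 in WT, 12 and 1 in KO, and 2 between genotypes. With the Gapdh ratio, which itself was mostly lower at 48 h, they were 7 and 0 in WT and 11 and 0 in KO. No filter gave 1 for KO 48 h against 24 h and 5 between genotypes at 48 h, and the second-brightest probe set, an alternative chosen after seeing the data, gave 7 and, between genotypes at 24 h, 10. Same-numbered dishes deviated together in some pairs only (correlations -0.17 to 0.28; over 0.1 in 2, 3 and 4 of 5 pairs between genotypes in basal, 24 h and 48 h dishes), short of every pair, and the numbers were not taken to pair dishes. The replicate block kept 7 of the 8 genotype calls at 48 h, among 9 it made, and gave 6 (WT 24 h), 11 (KO 24 h), 11 and 9 (48 h against 24 h in WT and KO).

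Leaving out each array in turn gave 2 to 10, 16 to 29 and 2 to 14 in WT, 1 to 10, 20 to 28 and 0 to 5 in KO, 8 to 25, 9 to 27 and 2 to 18 between genotypes, and 0 to 0 for the differences in response. Arrays that moved a count by over 1.5 times were many. For KO 24 h these were KO basal 1 and 2 (1 each), 3 and 4 (3 each) and 5 (10), and KO 24 h 2 (1), 3 and 5 (3 each) and 4 (2). For KO 48 h against 24 h they were KO 24 h 1 (0), 4 (1) and 5 (2), and KO 48 h 3 (0), 4 (1) and 5 (2). In WT they were WT 24 h 2 for the 24 h count (10), and for 48 h against 24 h WT 24 h 1, 3, 4 and 5 (4 each) and WT 48 h 1 (14), 3 (2), 4 and 5 (3 each). Between genotypes they were, in basal dishes, WT 2 (9) and KO 1 and 4 (10 each), 2 (8) and 5 (25); at 24 h WT 1 (10), 2 (27), 4 (11) and 5 (9) and KO 1 (11) and 3 (10); at 48 h WT 1 (18), 2 (3) and 4 (2) and KO 1 (3) and 2 and 4 (5 each).

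Of 55 calls of named genes, 7 held in every alternative and without each array: Cox6b2 in WT 48 h and in the 3 genotype comparisons, and Atp5g1, Ndufaf4 and Ndufs3 in KO 48 h. Directions reversed as follows, and the cause was not tested. The second-brightest probe set gave -0.045 and -0.071 for Ndufs4 at 48 h in WT and KO, -0.034 and -0.11 for Cox8a, -0.13 for Cox8a from 24 h to 48 h in WT, and 0.23 (KO 48 h) and 0.041 (KO against WT, 24 h) for Cox6a1. The mean of probe sets gave -0.020 and -0.019 for Cox8a in WT (48 h against basal and against 24 h) and 1.30 for Uqcr10 between genotypes at 48 h. Cox8c in WT at 48 h was 0.043 with replicates 1 and 2, and its call was lost without WT 48 h replicate 3, 4 or 5. Without rescaling, 48 h differences in WT and KO were 0.16 and 0.18 for Cox7a2, 0.28 and 0.19 for Cox4i1, 0.19 and 0.15 for Cox6a1, 0.24 and 0.23 for Cox6b1 and 0.27 and 0.15 for Atp5g3, and Cox6a1 between genotypes at 24 h was 0.018.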
